A study of Homo sapiens with 12 samples.

Results

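The nuclear genes that encode subunits of the 5 mitochondrial respiratory chain complexes were followed in LNCaP cells, a prostate cancer line that responds to androgen, after the ubiquitin protease USP22 had been raised or lowered. A gene was a member when its Ensembl ID maps to a protein-coding symbol of the NDUFA, NDUFB, NDUFC, NDUFS or NDUFV series or of the SDHA to SDHD, UQCR, COX4 to COX8 or ATP5 families, or is NDUFAB1 or CYC1, and 89 of the 63677 rows of the count table met this rule. These are 37 genes of complex I, 4 of complex II, 10 of complex III, 18 of complex IV (with NDUFA4, a subunit of complex IV despite its name), 19 of complex V and 1 read-through gene, ATP5MF-PTCD1. RNA sequencing covered 12 libraries in 4 groups of 3. The vector control cells carried pLPLUC, and the overexpression cells carried raised USP22. The shRNA control cells carried a control shRNA and the depletion cells an shRNA against USP22. Doxycycline (1 ug/mL, renewed every 48 hours, 5 days) was given to both shRNA groups, and all cells grew in hormone-proficient medium. The sources used here give no promoter for the raised USP22, do not say whether the lines are clones, and describe no doxycycline treatment of the vector control or overexpression cells. The controls therefore differ from each other in construct and in doxycycline, and these cannot be told apart.

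The respiratory chain passes electrons from NADH (complex I) and succinate (complex II) through ubiquinone to complex III, then through cytochrome c to complex IV and oxygen, while complexes I, III and IV pump protons and complex V, the ATP synthase, uses the gradient to make ATP. Its subunits come from both the nuclear and the mitochondrial genome, except for complex II, which is wholly nuclear-encoded. The nuclear subunit genes are known to be controlled in part by NRF1, by ETS-family factors such as GABP, and by YY1, with coactivators of the PGC-1 family. USP22 removes ubiquitin from histones as part of the SAGA coactivator.

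Promoter sequence was examined because it is a feature that the member rule did not use. RefSeq promoters on build GRCh38.p14, from 250 bases before to 50 bases after a gene's start, were at hand for 70 of the 89 members. They were searched on both strands for letters of 3 motifs, each in a longer form and a shorter core: NRF1 (GCGCATGCG, core GCATGCG), ETS (CCGGAAGT, core CCGGAAG) and YY1 (AAGATGGCG, core ATGGCG). The NRF1 letters nearly repeat on the opposite strand, so 1 site can match on both. The letters of no motif are contained in those of another motif. The stretches below run from 220 bases before to 20 bases after the start, 5′ to 3′, and capitals mark the matched letters.
SDHB: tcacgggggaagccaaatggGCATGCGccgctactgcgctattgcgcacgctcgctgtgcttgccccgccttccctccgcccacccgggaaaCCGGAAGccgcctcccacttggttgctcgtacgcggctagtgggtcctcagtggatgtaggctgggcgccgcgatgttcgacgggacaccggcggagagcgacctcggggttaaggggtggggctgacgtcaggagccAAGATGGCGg
COX5B: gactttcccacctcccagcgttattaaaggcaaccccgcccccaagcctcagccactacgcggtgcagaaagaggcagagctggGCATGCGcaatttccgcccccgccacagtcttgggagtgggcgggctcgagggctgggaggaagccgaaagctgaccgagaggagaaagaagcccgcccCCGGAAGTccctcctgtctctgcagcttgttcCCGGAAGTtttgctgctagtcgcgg
ATP5MC2: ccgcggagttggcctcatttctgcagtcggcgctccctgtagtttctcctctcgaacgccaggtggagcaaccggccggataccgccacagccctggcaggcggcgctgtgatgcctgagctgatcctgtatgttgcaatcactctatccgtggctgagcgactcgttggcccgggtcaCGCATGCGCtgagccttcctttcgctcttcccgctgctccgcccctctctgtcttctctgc
NDUFA8: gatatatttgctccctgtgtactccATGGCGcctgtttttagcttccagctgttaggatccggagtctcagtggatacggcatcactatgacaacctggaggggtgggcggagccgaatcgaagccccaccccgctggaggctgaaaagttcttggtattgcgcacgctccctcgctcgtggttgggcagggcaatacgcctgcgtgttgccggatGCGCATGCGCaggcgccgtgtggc
NDUFB4: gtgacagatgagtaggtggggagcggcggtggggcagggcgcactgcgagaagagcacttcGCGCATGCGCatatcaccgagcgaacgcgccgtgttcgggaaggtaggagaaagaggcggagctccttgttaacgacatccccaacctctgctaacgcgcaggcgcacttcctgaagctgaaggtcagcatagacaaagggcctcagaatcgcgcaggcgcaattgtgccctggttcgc
ATP5MC1: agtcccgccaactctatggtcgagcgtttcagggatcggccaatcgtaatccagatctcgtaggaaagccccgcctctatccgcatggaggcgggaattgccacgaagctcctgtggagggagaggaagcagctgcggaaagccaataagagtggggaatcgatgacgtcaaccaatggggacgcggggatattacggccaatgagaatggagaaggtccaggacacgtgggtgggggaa
The first 4 belong to members that were higher after depletion, NDUFB4 is the member that was lower after overexpression, and ATP5MC1 had the smallest p of all members on depletion. SDHB (chr1:17054013-17054252 on the minus strand) held the core letters of NRF1 and ETS and the longer letters of YY1 just after its start. COX5B (chr2:97645842-97646081 on the plus strand) held an NRF1 core and 2 copies of the longer ETS letters. ATP5MC2 (chr12:53676064-53676303 on the minus strand), NDUFA8 (chr9:122159760-122159999 on the minus strand) and NDUFB4 (chr3:120596116-120596355 on the plus strand) each held the longer NRF1 letters, at 41, 4 and 159 bases before the start, and NDUFA8 also a YY1 core. The ATP5MC1 promoter (chr17:48892567-48892806 on the plus strand) held none of these letters in the window searched.

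Over all 70 member promoters, the longer NRF1 letters were in 10 (14.3%), the longer ETS letters in 10 (14.3%) and the longer YY1 letters in 8 (11.4%). The same letters were in 2.1%, 4.44% and 1.85% of the 27305 promoters of the table, and in 2.76%, 6.19% and 2.74% of the 15842 that belong to protein-coding genes. At least 1 of the 3 longer forms was in 25 member promoters (35.7%) against 10.9% of protein-coding promoters. With the shorter cores the member shares were 18.6% for NRF1, 28.6% for ETS and 32.9% for YY1, against 5.14%, 14.2% and 14.3% of protein-coding promoters. Among the 14 members with a promoter that were higher after depletion, 8 (57.1%) held a longer form, and among the 54 other tested members with a promoter 17 (31.5%) did. With the shorter cores the same shares were 9 of 14 (64.3%) and 29 of 54 (53.7%). ATP5MC1, ATP5PO and COX5A, which kept their depletion call in every alternative fit described below, held none of these letters. ATP5MC3 and NDUFB9, which also kept it, had no promoter at hand. A match describes letters and does not show that a factor binds there.

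**Figure D1:**
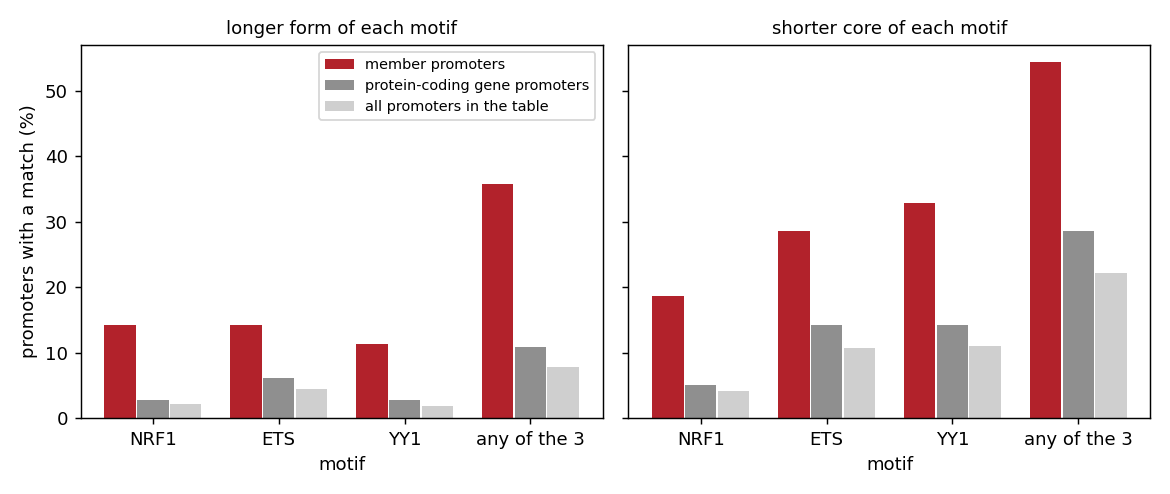
Percent of promoters holding the letters of each motif, in the longer form (left) and the shorter core (right), for 70 member promoters, 15842 protein-coding promoters and all 27305 promoters. The member bar is the tallest for every motif, with 35.7% of member promoters holding any longer form.

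The libraries held 77607469 to 103690001 counted reads, of which the members took 0.992% to 1.19%. Levels are in CPM, read counts scaled to a common library size with TMM factors. USP22 followed the labels in every library, at 482, 491 and 565 CPM in vector control cells, 1498, 1406 and 1495 CPM after overexpression, 479.6, 473 and 479.7 CPM in the shRNA control and 257, 265 and 251 CPM after depletion. All 8 LNCaP markers were present, and their summed level was 4707 to 4996 CPM in vector control cells, 4413 to 4561 CPM after overexpression, 6158 to 6349 CPM in the shRNA control and 4316 to 4793 CPM after depletion. Of these 8 markers 6 fell and 1 rose on depletion, with KLK3, which encodes prostate-specific antigen, at 0.229 of its control level (edgeR adjusted p = 1.54e-10). The 5 leukocyte markers summed to at most 0.521 CPM in any library. PECAM1 was the 1 marker at 0 reads in every library. The 4 endothelial markers summed to 9.56 to 13.4, 9.53 to 10.8, 6.70 to 7.77 and 11.97 to 14.8 CPM in the same order of groups, nearly all of it from VWF, which was higher after depletion (log2 fold change 0.90 with SE 0.12, edgeR adjusted p = 4.83e-05). The 6 stromal markers summed to 10.2 to 13.8, 10.9 to 12.7, 17.4 to 18.3 and 14.1 to 18.1 CPM, and the 4 markers of basal or other epithelial lines to 4.59 to 5.61, 5.08 to 6.49, 9.99 to 10.7 and 7.62 to 8.19 CPM. The part of these markers in the results below was not tested. In bulk RNA, fewer cells of a type and less RNA per cell cannot be told apart. The labels do not say that replicates were separate cultures, so p-values measure the spread between these libraries, which may be technical. In many members the third vector control library differed from its group mates. SDHD, for example, was at 79.7, 79.3 and 39.0 CPM in the vector control and NDUFC2 at 46.5, 47.2 and 24.98 CPM. NDUFV1 was at 200.4, 196 and 276 CPM there, so replicate 3 was low for some members and high for others. Counts of called members, over all complexes together, are given with and without this library. Some counts of other gene lists and some summed levels are given only with it.

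Members differed widely in level. Per kilobase of gene length, averaged over the 12 libraries, the highest member of complex I was NDUFS5 at 301 CPM per kb and the lowest NDUFA7 at 0.981 CPM per kb. NDUFA7 had 98 to 152 reads a library. Whether reads shared with an overlapping gene were lost there was not tested, so its level may be too low. Complex II ran from SDHC at 5.19 to SDHB at 27.9 CPM per kb, and complex III from UQCRHL at 8.83 to UQCRH at 181 CPM per kb. UQCRHL is a retrocopy of UQCRH, and reads of the pair may be split or lost. In complex IV, COX8A was highest at 261 CPM per kb, and in complex V, ATP5F1B, the catalytic beta subunit, was highest of all members at 566 CPM per kb. Pseudogenes whose symbols match the rule took 0.0968% to 0.155% of the reads that fell on its matching rows. The rule allows no suffix on NDUF, SDH and CYC1 symbols, so copies of those genes named with a suffix were not counted.

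Several subunits come as tissue isoforms, and LNCaP cells held the widely expressed forms. COX4I1, the common isoform of subunit 4 of complex IV, was measured at 281, 280.5 and 344 CPM in vector control cells, 290.2, 290.2 and 306 CPM after overexpression, 266, 264 and 258 CPM in the shRNA control and 268, 281 and 254 CPM after depletion. Its lung-enriched counterpart COX4I2 had 4 reads over all 12 libraries. COX6A1, the non-muscle form, was measured at 83.1, 80.1 and 74.2 CPM in vector control cells, 75.0, 73.7 and 74.3 CPM after overexpression, 73.1, 70.9 and 67.6 CPM in the shRNA control and 75.5, 84.7 and 73.2 CPM after depletion, while the heart and muscle form COX6A2 had 8 reads in all. The muscle form COX7A1 stayed between 0.229 and 0.746 CPM, against 115 to 159 CPM for COX7A2. COX8C had 52 reads and ATP5MF-PTCD1 78 reads over the 12 libraries. These 4 members, COX4I2, COX6A2, COX8C and ATP5MF-PTCD1, did not pass the filter on low counts, which left 85 members among 26076 tested genes.

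Lowered USP22 was compared with the control shRNA first. After depletion the members leaned upward by a small amount: 73 of 85 had a positive log2 fold change, with a median of 0.14 against 0.0002 for all tested genes. By edgeR with a Benjamini-Hochberg adjusted p under 0.05 over all tested genes, 19 members (22.4%) were higher and 1, COX7A2, was lower. Over all tested genes 9.4% were higher and 10.4% lower, and among the 14870 tested protein-coding genes 13.4% were higher. The 19 rises were small, from 1.13-fold to 1.28-fold. In 39 of 85 members (45.9%) all 3 depletion libraries lay above all 3 control libraries, against 20.3% of all tested genes. The members that were higher numbered 7 of 37 in complex I, 1 of 4 in complex II, 2 of 10 in complex III, 2 of 15 in complex IV and 7 of 19 in complex V. Median log2 fold changes of the complexes, in this order, were 0.14, 0.14, 0.13, 0.10 and 0.16.

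The number of members called on depletion depended on single libraries. Vector control replicate 3 is in neither group compared, but all groups share the fit. Without this library 44 members (51.8%) were higher and 2 lower, against 15.7% of all tested genes higher. How it acts on this comparison was not tested. Without overexpression replicate 1, 2 or 3 the count of higher members was 11, 11 and 10. It was 7 without shRNA control replicate 1 and 6 without replicate 3, which are 8.24% and 7.06% of members against 6.96% and 6.86% of all tested genes. It was 5 and 6 without depletion replicate 1 and 2, which are 5.88% and 7.06% against 6.58% and 7.2%. In those 4 fits the share of members called was near that of all genes, while the median log2 fold change of the members stayed between 0.10 and 0.20 in all alternatives. ATP5MC1, ATP5MC3, ATP5PO, COX5A and NDUFB9 were called in each of the 21 alternative fits. Each of the other 14 higher members and COX7A2 lost its call in at least 2 of the fits that leave out a library.

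**Figure D2:**
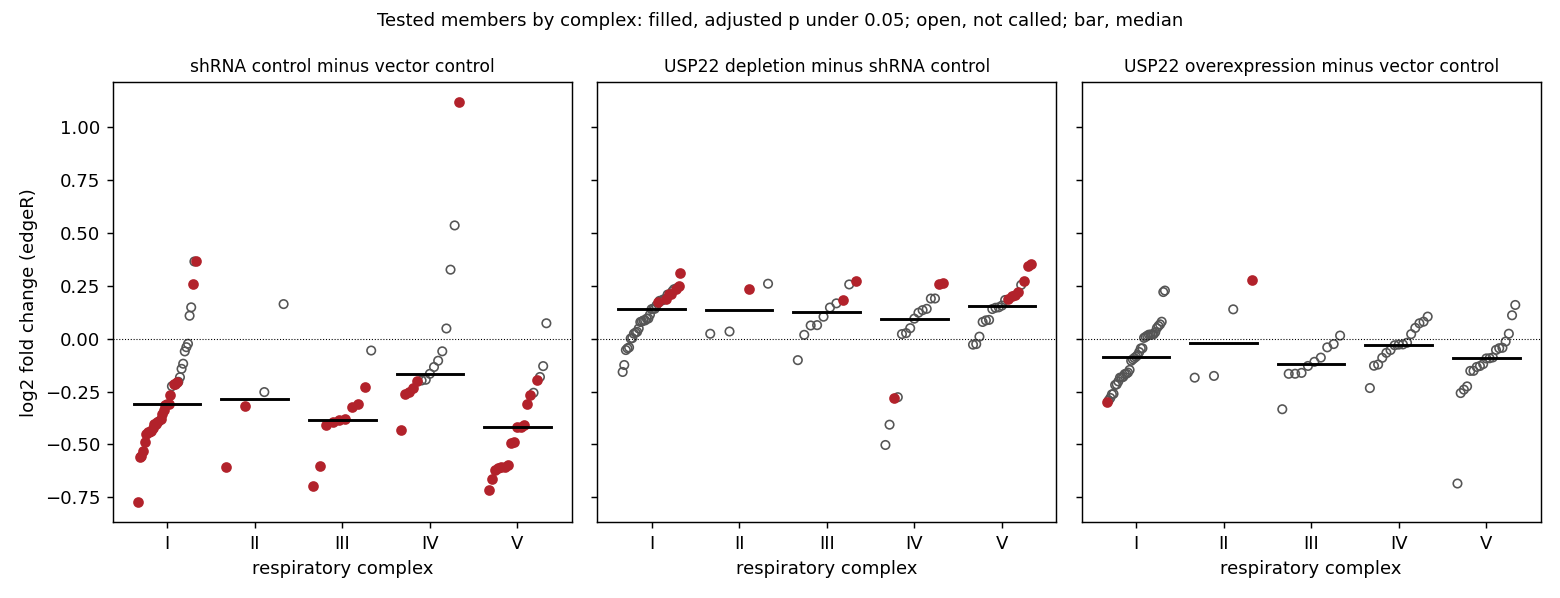
Log2 fold change (edgeR) of each of the 85 tested members by respiratory complex, for the shRNA control against the vector control (left), depletion against the shRNA control (middle) and overexpression against the vector control (right). Filled points have an adjusted p under 0.05 and bars are medians, which lie below 0 on the left for every complex (overall -0.31) and above 0 in the middle (overall 0.14).

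In complex V the 2 largest log2 fold changes on depletion were those of ATP5MC1 and ATP5MC3, genes of the c ring, the rotor that turns as protons pass. ATP5MC1, ATP5MC2 and ATP5MC3 encode the same mature c subunit from 3 separate genes, and all 3 rose. ATP5MC1 (ENSG00000159199) was measured at 89.4, 88.9 and 102 CPM in vector control cells, 89.2, 90.3 and 92.8 CPM after overexpression, 59.1, 60.0 and 58.0 CPM in the shRNA control and 75.4, 77.7 and 72.9 CPM after depletion. Its 3 depletion libraries lay above the shRNA control and below the vector control, and the rise over the shRNA control was 1.28-fold (log2 fold change 0.35 with SE 0.06, edgeR adjusted p = 0.000733). ATP5MC3 (ENSG00000154518) was measured at 201, 192 and 202 CPM in vector control cells, 187, 182 and 189.8 CPM after overexpression, 128, 136 and 126 CPM in the shRNA control and 164, 179 and 152 CPM after depletion. Depletion was again above the shRNA control without overlap (1.27-fold, log2 fold change 0.35 with SE 0.06, edgeR adjusted p = 0.000835). ATP5MC2 (ENSG00000135390) was measured at 180.2, 172 and 198 CPM in vector control cells, 169, 169 and 178 CPM after overexpression, 125, 138 and 129 CPM in the shRNA control and 149.8, 159 and 143 CPM after depletion. Its rise was 1.16-fold, smaller than that of ATP5PO in the same complex (log2 fold change 0.21 with SE 0.07, edgeR adjusted p = 0.0328), and its call ended without shRNA control replicate 1 or 3 or depletion replicate 1 or 2. Added together, the 3 genes gave 312.2, 333.1 and 312.8 CPM in the shRNA control and 389.1, 415.9 and 368.4 CPM after depletion. The same sum was 470.8, 452.4 and 502.3 CPM in vector control cells, with 444.7, 441.2 and 460.1 CPM after overexpression.

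ATP5PO, the stalk subunit that confers oligomycin sensitivity (ENSG00000241837), was measured at 57.6, 55.5 and 57.4 CPM in vector control cells, 50.2, 53.0 and 52.2 CPM after overexpression, 36.9, 38.5 and 35.5 CPM in the shRNA control and 44.6, 47.6 and 41.9 CPM after depletion. The depletion libraries were all above the shRNA control (1.21-fold, log2 fold change 0.27 with SE 0.06, edgeR adjusted p = 0.00476). The other 3 higher members of complex V were the catalytic ATP5F1B (1.15-fold, edgeR adjusted p = 0.0408), the central stalk subunit ATP5F1C (1.14-fold, edgeR adjusted p = 0.0368) and the membrane subunit ATP5ME (1.17-fold, edgeR adjusted p = 0.0449). ATP5F1A, the alpha subunit that alternates with the beta subunit in the catalytic head, was at 746 ± 15.4 CPM in the shRNA control and 752 ± 60.4 CPM after depletion (SD, n = 3 each, edgeR adjusted p = 0.947). ATP5IF1, an inhibitor of the ATP synthase, was at 149.9, 151 and 144 CPM in the shRNA control and 165, 173 and 155 CPM after depletion. These libraries did not overlap, but the change did not pass the test (log2 fold change 0.15 with SE 0.06, edgeR adjusted p = 0.118).

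**Figure D3:**
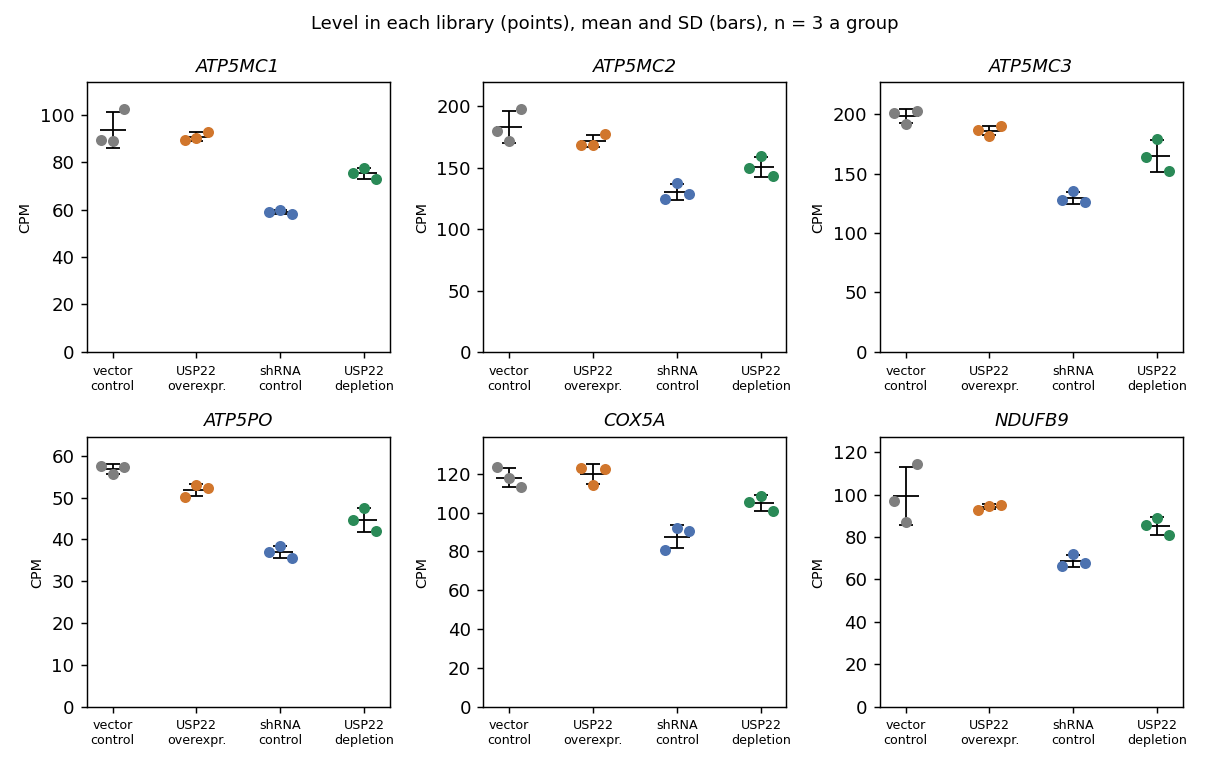
CPM of 6 members in each library (points), with group mean and SD (bars, n = 3), for the 3 c-ring genes, ATP5PO, COX5A and NDUFB9. In every panel the 3 depletion libraries lie above the 3 shRNA control libraries, as in ATP5MC1 at 72.9 to 77.7 against 58.0 to 60.0 CPM.

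In complex I, 7 members rose on depletion, and they sit in both of its arms. NDUFB9, a supernumerary subunit of the membrane arm (ENSG00000147684), was measured at 96.8, 87.1 and 114 CPM in vector control cells, 92.8, 94.5 and 95.2 CPM after overexpression, 66.4, 71.8 and 67.9 CPM in the shRNA control and 85.6, 89.1 and 81.0 CPM after depletion. Depletion lay above the shRNA control without overlap (1.24-fold, log2 fold change 0.31 with SE 0.08, edgeR adjusted p = 0.0114). NDUFB10, another membrane arm subunit, rose from 105, 108 and 107 to 129.8, 132 and 119 CPM (1.19-fold, log2 fold change 0.25 with SE 0.07, edgeR adjusted p = 0.0186). NDUFS1, the large iron-sulfur subunit of the NADH-oxidising N module, rose from 206, 201 and 196 to 229.5, 242 and 216 CPM (1.14-fold, log2 fold change 0.19 with SE 0.05, edgeR adjusted p = 0.0201). NDUFA8 rose from 48.0, 49.4 and 47.7 to 56.4, 55.0 and 52.4 CPM (1.13-fold, edgeR adjusted p = 0.0351), and its promoter is the one shown above with the NRF1 letters at the start. NDUFAB1, the mitochondrial acyl carrier protein, which also serves fatty acid synthesis, rose from 107, 119 and 111 to 125, 140.5 and 123 CPM (1.16-fold, edgeR adjusted p = 0.044). The remaining 2 were NDUFA12 and NDUFB5. By module, 2 of 10 N-module genes and 5 of 22 membrane arm genes were higher, and the 5 genes of the ubiquinone-binding Q module had a median log2 fold change of 0.16 with edgeR adjusted p of 0.184 or more.

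Complex II has 4 subunits, and all 4 of its genes had a positive log2 fold change on depletion, of which that of SDHB passed the test. SDHB, the iron-sulfur subunit (ENSG00000117118), was measured at 81.8, 74.5 and 92.5 CPM in vector control cells, 73.4, 70.9 and 74.6 CPM after overexpression, 53.7, 56.1 and 53.4 CPM in the shRNA control and 63.8, 68.5 and 60.1 CPM after depletion. It rose on depletion without overlap (1.18-fold, log2 fold change 0.24 with SE 0.07, edgeR adjusted p = 0.0345). SDHA, the flavoprotein that oxidises succinate, was at 133, 135 and 130.0 CPM in the shRNA control and 135, 144 and 128 CPM after depletion, and these libraries overlapped (edgeR adjusted p = 0.836). Of the membrane anchors, SDHD was at 57.1, 58.1 and 51.2 CPM in the shRNA control and 67.0, 70.8 and 61.5 CPM after depletion, without overlap but not past the test (log2 fold change 0.26 with SE 0.18, edgeR adjusted p = 0.363), and SDHC overlapped (log2 fold change 0.02 with SE 0.06, edgeR adjusted p = 0.856).

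In complex III, CYC1 and UQCRH rose on depletion. CYC1, cytochrome c1, which hands electrons to cytochrome c (ENSG00000179091), was measured at 214, 214 and 273 CPM in vector control cells, 209.8, 199 and 218 CPM after overexpression, 146, 155 and 160.4 CPM in the shRNA control and 182, 195 and 181 CPM after depletion. The rise was 1.21-fold (log2 fold change 0.28 with SE 0.08, edgeR adjusted p = 0.0271). UQCRH, the hinge protein beside cytochrome c1, rose from 219, 223 and 207 to 243, 267 and 227 CPM (1.14-fold, edgeR adjusted p = 0.0441). UQCRFS1, the Rieske iron-sulfur protein, was measured at 164, 156 and 178 CPM in vector control cells, 152, 151 and 158 CPM after overexpression, 157, 165 and 156 CPM in the shRNA control and 166, 177 and 156 CPM after depletion. Its groups overlapped in all 3 comparisons made.

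Complex IV held 2 rises and the 1 fall. COX5A (ENSG00000178741), a subunit on the matrix side, was measured at 123, 118 and 113 CPM in vector control cells, 123, 114 and 122 CPM after overexpression, 80.8, 91.9 and 90.3 CPM in the shRNA control and 105, 109 and 101 CPM after depletion. It rose 1.20-fold on depletion (log2 fold change 0.26 with SE 0.06, edgeR adjusted p = 0.00833). COX5B, the zinc-binding subunit (ENSG00000135940), was measured at 126, 112 and 149 CPM in vector control cells, 123, 123 and 134 CPM after overexpression, 108, 116 and 114 CPM in the shRNA control and 134, 145 and 126 CPM after depletion. Its depletion libraries lay above the shRNA control without overlap (1.20-fold, log2 fold change 0.26 with SE 0.09, edgeR adjusted p = 0.044), and within the range of the vector control. That range reaches them through vector control replicate 3, and all 3 depletion libraries lay above vector control replicates 1 and 2. COX7A2, the widely expressed form of a small membrane subunit (ENSG00000112695), was measured at 151, 146 and 141 CPM in vector control cells, 146, 139 and 147 CPM after overexpression, 156, 159 and 138 CPM in the shRNA control and 125, 134 and 115 CPM after depletion. Depletion took it to 0.824 of the shRNA control (log2 fold change -0.28 with SE 0.07, edgeR adjusted p = 0.00892), and all 3 depletion libraries were below those of every other group. This call ended without shRNA control replicate 1 or 2 or depletion replicate 3. Its relative COX7A2L, which takes part in joining complexes into supercomplexes, was at 63.3, 67.3 and 61.5 CPM in the shRNA control and 69.6, 73.9 and 65.7 CPM after depletion (edgeR adjusted p = 0.168). NDUFA4 was at 206, 209.6 and 188 CPM in the shRNA control and 203, 219 and 190.3 CPM after depletion (edgeR adjusted p = 0.864).

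Raised USP22 was then compared with the vector control. Here 1 member rose, SDHC, and 1 fell, NDUFB4, together 2.35% of members against 4.11% of all tested genes called in either direction. SDHC, a membrane anchor of complex II (ENSG00000143252), was measured at 66.4, 63.6 and 67.3 CPM in vector control cells, 76.3, 78.3 and 84.8 CPM after overexpression, 68.1, 78.5 and 74.5 CPM in the shRNA control and 76.6, 73.7 and 74.4 CPM after depletion. The overexpression libraries were all above the vector control (1.21-fold, log2 fold change 0.28 with SE 0.06, edgeR adjusted p = 0.0218). NDUFB4, a membrane arm subunit of complex I (ENSG00000065518), was measured at 349, 336 and 282 CPM in vector control cells, 259.5, 264 and 262 CPM after overexpression, 189, 196 and 180.2 CPM in the shRNA control and 182, 193 and 174 CPM after depletion. Overexpression took it to 0.811 of the vector control (log2 fold change -0.30 with SE 0.07, edgeR adjusted p = 0.0269), and vector control replicate 3 was the nearest to the overexpression libraries. Neither call held when the 6 libraries compared were fitted alone, nor without some single libraries. For SDHC these were vector control replicate 2 and overexpression replicates 2 and 3, and its adjusted p reached 0.116 over all alternatives. For NDUFB4 the call ended without 9 of the 12 libraries, and its adjusted p reached 0.215.

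Across the members on overexpression, 25 of 85 (29.4%) had a positive log2 fold change, against 48.4% of all tested genes, and the median was -0.09 against -0.01. In 24 members (28.2%) all 3 overexpression libraries lay below the vector control, against 12.8% of all tested genes. COX8A, the member next in order of p, was at 137, 132 and 150.4 CPM in the vector control against 118, 116 and 124 CPM with raised USP22 (log2 fold change -0.23 with SE 0.06, edgeR adjusted p = 0.0561). Without vector control replicate 3 the median of the members was -0.04, with 1 member higher and 4 lower, and without replicate 2 it was -0.11 with 4 lower.

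**Figure D4:**
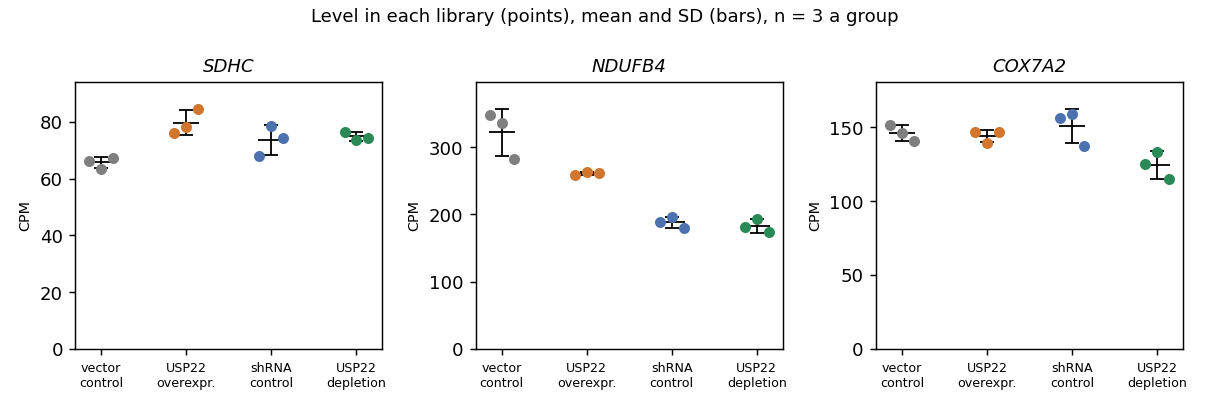
CPM of SDHC, NDUFB4 and COX7A2 in each library (points), with group mean and SD (bars, n = 3). SDHC is higher after overexpression than in the vector control, NDUFB4 is lower after overexpression and lower still in both shRNA groups, and COX7A2 is lowest after depletion, at 115 to 134 CPM.

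The responses to lowered and raised USP22 were compared gene by gene with a contrast of the changes. Each change was taken from its own control, and the controls differ in construct and in doxycycline. The part of these backgrounds in a difference between the changes cannot be told apart from that of USP22. The depletion change exceeded the overexpression change in 16 of 85 members (18.8%), against 5.98% of all tested genes. The 16 included the 3 c-ring genes, ATP5PO, ATP5F1B, ATP5ME, SDHB, CYC1, NDUFS1, NDUFA8 and NDUFB9, and 5 members that were not called on depletion, COX8A, NDUFA6, NDUFA9, NDUFS6 and ATP5PD. ATP5MC1, ATP5MC3, ATP5PO and ATP5ME were called in each of 19 alternative fits and SDHB in 18, while each of the other 11 lost its call in at least 4, ATP5MC2 in 9 and NDUFA8 in 10. In ATP5MC3 the difference of the log2 changes was 0.44 (SE 0.09, edgeR adjusted p = 0.0042), from a change of 0.35 on depletion and -0.09 on overexpression. In ATP5ME it was 0.46 (SE 0.10, edgeR adjusted p = 0.00897), from 0.22 and -0.24. This count also depended on single libraries: it was 38 without vector control replicate 3 and 25 without replicate 2. It was 6, 4 and 8 without overexpression replicate 1, 2 and 3, 7 and 6 without shRNA control replicate 1 and 3, and 6 without depletion replicate 1 or 2. Over all 26076 tested genes, 5381, 2944, 1982, 2021, 2122, 1928, 2127, 1939 and 2116 were called in either direction in these fits, in the same order. The main fit called 2840. In the fits with 4 to 8 members called, the share of members called was near that of all tested genes called in either direction. All members called in these fits were higher, whereas the 5.98% of the main fit counts only genes that were higher. The share of all tested genes that were higher is not given for these fits, so the excess over it was not followed in them. At an unadjusted p under 0.05, 45 of 85 members (52.9%) differed between the responses, against 24.1% of all tested genes.

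More members differed between the controls than in either comparison of USP22. In the shRNA control, 54 of 85 members (63.5%) were lower than in the vector control and 3 were higher, with a median log2 difference of -0.31 against 0.02 for all tested genes. Over all tested genes 21.3% were lower and 21.7% higher, and among tested protein-coding genes 28.6% were lower. All 3 shRNA control libraries lay below all 3 vector control libraries in 56 members (65.9%), against 24.2% of all tested genes. The lower members numbered 23 of 37 in complex I, 2 of 4 in complex II, 9 of 10 in complex III, 5 of 15 in complex IV and 15 of 19 in complex V. With each library left out in turn, between 46 and 60 members were lower, and without vector control replicate 3 60 were lower and 5 higher. The members that were higher in the shRNA control were NDUFA13, a complex I subunit also known as GRIM-19 (log2 difference 0.26, edgeR adjusted p = 0.0121), NDUFA3 (0.37, edgeR adjusted p = 0.000266) and COX7B2, which stayed under 1 CPM (1.12, edgeR adjusted p = 0.0126). The call of NDUFA13 ended without vector control replicate 1 or shRNA control replicate 2, and that of COX7B2 without vector control replicate 1.

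The shRNA control libraries serve in both this comparison and the depletion comparison, so the values are given side by side and no overlap is drawn from them. ATP5MC1 differed by -0.66 between the controls and by 0.35 on depletion (log2). The corresponding values were -0.62 and 0.27 for ATP5PO, -0.60 and 0.28 for CYC1, -0.61 and 0.24 for SDHB, and -0.43 and 0.26 for COX5A. NDUFB4 had the smallest p of all members between the controls, at -0.77 (edgeR adjusted p = 3.14e-07), and stood at -0.05 on depletion (edgeR adjusted p = 0.733). ATP5F1A was at -0.61 between the controls and 0.01 on depletion. The part of doxycycline, of the constructs and of the lines themselves in the control difference cannot be told apart.

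Summed over the members of a complex, the levels showed the same order of groups in each of the 5 complexes, with the vector control highest on average and the shRNA control lowest. Complex V summed to 4956, 4822 and 5298 CPM in vector control cells, 4600, 4533 and 4659 CPM after overexpression, 3550, 3661 and 3466 CPM in the shRNA control and 3878, 4167 and 3648 CPM after depletion. The depletion mean was 1.10 times the shRNA control mean, and the shRNA control mean 0.708 times the vector control mean. Complex I summed to 3313, 3221 and 3596 CPM in vector control cells, 3118, 3129 and 3195 CPM after overexpression, 2703, 2790 and 2628 CPM in the shRNA control and 2930, 3084 and 2777 CPM after depletion. Complex II summed to 379, 367 and 393 CPM in vector control cells, 364, 371 and 379.7 CPM after overexpression, 312, 328 and 309 CPM in the shRNA control and 342, 357 and 324 CPM after depletion. For complex III the ratio of depletion to shRNA control was 1.09 and for complex IV 1.06, against 1.08 in complex I and 1.08 in complex II. The depletion group overlapped with the shRNA control in all 5 sums through its replicate 3, whereas the shRNA control lay below the vector control in all of them. The ratio of overexpression to vector control ran from 0.915 in complex V to 0.985 in complex IV. Without vector control replicate 3 it was 0.963, 0.996, 0.976, 0.984 and 0.94 in complexes I to V, and the ratio of the controls was 0.828, 0.847, 0.811, 0.887 and 0.728.

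**Figure D5:**
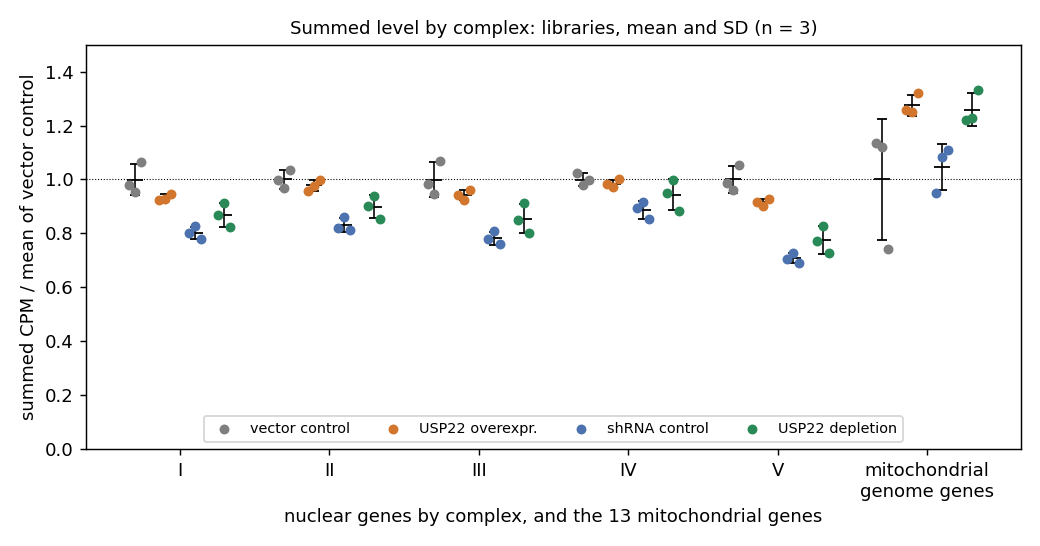
Summed CPM of the nuclear members of each complex and of the 13 protein-coding genes of the mitochondrial genome in each library, divided by the vector control mean, with group mean and SD (n = 3). The nuclear sums are lowest in the shRNA control, at 0.708 of the vector control in complex V, and the mitochondrial sum is low in vector control replicate 3.

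The 13 protein-coding genes of the mitochondrial genome, which supply part of complexes I, III, IV and V, were all tested. Their summed level was 8991, 8875 and 5857 CPM in vector control cells, 9951, 9877 and 10440 CPM after overexpression, 7520, 8561 and 8774 CPM in the shRNA control and 9642, 9717 and 10520 CPM after depletion, with vector control replicate 3 the lowest library of all. On overexpression 5 (38.5%) were higher (median log2 fold change 0.46), against 4.11% of all tested genes called in either direction. The count was 1 when any single overexpression library was left out, with 547, 511 and 621 of 26076 tested genes called without replicate 1, 2 and 3. Without vector control replicate 3 the median of the 13 on overexpression was 0.28. On depletion all 13 had a positive log2 fold change, with a median of 0.22. Of these 1 (7.69%) passed the test, MT-CO3 (log2 fold change 0.41, edgeR adjusted p = 0.0432), against 9.4% of all tested genes higher. Without vector control replicate 3, 8 were higher, and 8375 of 26076 tested genes were called in either direction. The call of MT-CO3 ended without any 1 of the overexpression, shRNA control or depletion libraries. In the shRNA control 3 (23.1%) were higher than in the vector control, against 21.7% of all tested genes, with a median of 0.16. Leaving out vector control replicate 3 gave a median of -0.05 with 3 higher and 3 lower, and leaving out vector control replicate 2 gave 5 higher. In those fits 12335 and 10490 of 26076 tested genes were called in either direction. Leaving out shRNA control replicate 3 ended all 3 calls. Nuclear copies of mitochondrial DNA may take or lend some of these reads.

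Factors that build the complexes were examined next. Of 49 tested assembly factors 10 were higher and 2 lower on depletion, and 19 were lower and 3 higher in the shRNA control than in the vector control. These are 20.4% and 4.08% of the factors on depletion, against 9.4% higher and 10.4% lower of all tested genes, and 38.8% and 6.12% between the controls, against 21.3% lower and 21.7% higher. Without vector control replicate 3 the counts between the controls were 25 lower and 5 higher, and without any other single library 2 were higher. On overexpression none of the 49 was called by edgeR, DESeq2 or limma voom. By edgeR 9 had an unadjusted p under 0.05, a share near the 18.5% of all tested genes. Without vector control replicate 3, 1 was called higher. For complex I, 6 of 14 factors were higher on depletion, among them NDUFAF5 (log2 fold change 0.29, edgeR adjusted p = 0.00378), NDUFAF7 (0.26, edgeR adjusted p = 0.0102) and NDUFAF2 (0.34, edgeR adjusted p = 0.0136). Of the complex II factors, SDHAF3 rose (log2 fold change 0.54, edgeR adjusted p = 0.000241) and SDHAF4 fell (-0.45, edgeR adjusted p = 0.00193). For complex IV, COX18, which inserts a mitochondrially encoded subunit into the membrane, fell (-0.44, edgeR adjusted p = 5.63e-05), while LRPPRC, which stabilises mitochondrial messenger RNA, and COA7 rose (0.20 and 0.23, edgeR adjusted p = 0.0149 and 0.0246). The 6 of complex I were 2 without shRNA control replicate 3 and 3 without depletion replicate 1 or 2. The count of 10 was 22 without vector control replicate 3, 6 and 3 without shRNA control replicate 1 and 3, and 4 and 5 without depletion replicate 1 and 2. Over all 26076 tested genes, 8375, 3535, 3846, 3612 and 3869 were called in either direction in these fits, in the same order. The main fit called 5172. Without shRNA control replicate 3 or depletion replicate 1 or 2, the share of factors that were higher was near the share of all tested genes that were higher.

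Of 14 genes for mobile electron carriers and ubiquinone synthesis, 4 (28.6%) were higher on depletion, against 9.4% of all tested genes, and 6 were higher and 1 lower without vector control replicate 3. PDSS1, which makes the ubiquinone side chain, was 1.495-fold higher (edgeR adjusted p = 4.77e-05), COQ3, a methyltransferase of the same pathway, 1.39-fold (edgeR adjusted p = 0.000114), and PDSS2, the partner of PDSS1, 1.28-fold (edgeR adjusted p = 0.000878). CYCS, cytochrome c itself, was measured at 342, 347 and 226 CPM in vector control cells, 302, 385 and 344 CPM after overexpression, 217, 234 and 193 CPM in the shRNA control and 316, 304 and 295 CPM after depletion. It was 1.42-fold higher on depletion (log2 fold change 0.51 with SE 0.13, edgeR adjusted p = 0.0103). In the shRNA control 10 of the 14 (71.4%) were lower than in the vector control, against 21.3% of all tested genes, and 10 were lower and 1 higher without vector control replicate 3. Of 13 genes of the citric acid cycle, whose SDHA to SDHD step is complex II itself, SUCLG1 and FH, on either side of that step, were higher on depletion (1.35-fold and 1.32-fold, edgeR adjusted p = 2.42e-05 and 0.000121), and IDH3G, a subunit of isocitrate dehydrogenase, was lower (0.814 of control, edgeR adjusted p = 0.00327). These are 15.4% higher and 7.69% lower, against 9.4% and 10.4% of all tested genes, and 3 were higher and 1 lower without vector control replicate 3. Between the controls, 8 of these 13 were lower in the shRNA control and 1 was higher (median log2 difference -0.27). Of all tested genes 21.3% were lower and 21.7% higher there. Fits that leave out other libraries are not given for the carriers or the cycle genes.

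Among 14 known regulators of these genes, 6 (42.9%) were higher on depletion, against 9.4% of all tested genes. The count was 8 without vector control replicate 3 and 4 without shRNA control replicate 1. MYC was measured at 290.4, 293 and 334 CPM in vector control cells, 292, 284 and 305 CPM after overexpression, 93.1, 97.3 and 104 CPM in the shRNA control and 153, 163 and 156 CPM after depletion. It was 1.61-fold higher on depletion (log2 fold change 0.68 with SE 0.07, edgeR adjusted p = 1.78e-06) and lower in the shRNA control than in the vector control (log2 difference -1.64, edgeR adjusted p = 3.34e-11). The coactivator PPARGC1B was 1.501-fold higher on depletion (edgeR adjusted p = 4.61e-05), and PPARGC1A was 2.54-fold higher (edgeR adjusted p = 0.00188) at only 0.403 ± 0.0345 CPM in the shRNA control and 1.03 ± 0.222 CPM after depletion (SD, n = 3 each). The nuclear receptor ESRRG was called in both comparisons of USP22, 1.84-fold higher on overexpression (edgeR adjusted p = 0.00143) and 1.54-fold higher on depletion (edgeR adjusted p = 0.00275). TFAM and TFB1M, which act on the mitochondrial genome and its ribosome, were the other 2. The factors whose letters were searched in the promoters did not pass the test on depletion: the log2 values were 0.08 for NRF1 (edgeR adjusted p = 0.523), 0.13 for GABPA (edgeR adjusted p = 0.454) and 0.10 for YY1 (edgeR adjusted p = 0.277). In the shRNA control 11 of the 14 regulators (78.6%) were lower than in the vector control, against 21.3% of all tested genes, and 1 was higher. Without vector control replicate 3 these counts were 12 and 1.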

How the data were processed

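RNA from 12 LNCaP libraries went into stranded total RNA libraries, per the labels' protocols. The authors deposited one table of raw read counts per Ensembl gene ID. The submitters' processing notes name featureCounts 1.5.0-p3, STAR 2.5.2a, DESeq2 1.14.1, and hg19 as the build. Not given in the sources used here are the annotation, the strand setting and the rule for reads that map more than once. Close copies and overlapping or antisense genes may therefore share or lose reads. No gene coordinates on hg19 are given.

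Groups come from the sample titles. Symbols and gene types were taken by ID from GENCODE 29 and gene name tables, which matched 81.9% of IDs. The members and gene lists were chosen with earlier results of these data known. Counts were analysed with R 4.3.3, edgeR 4.0.16 and limma 3.58.1: filterByExpr by group, TMM scaling, 1 quasi-likelihood fit of all 4 groups (8 residual degrees of freedom), and Benjamini-Hochberg adjustment over all tested genes with a threshold of 0.05. Depth sets the counting error, and no replicate pair came near it (smallest chi-square over its degrees of freedom 7.18). Gene lengths are summed exon lengths from GENCODE 29. The procedure was run on simulated counts with known fold changes. These held no library set apart from its group mates and no difference between the controls, so the run does not cover those features. With 3 libraries against 3 the smallest exact permutation p is 0.1, so none was used.

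Genes given with values are, by rule, up to 4 called members per complex, direction and USP22 comparison, the extremes of level per kilobase, a preset list, and up to 3 called genes per pathway list. NDUFA12, NDUFB5, NDUFC2, NDUFV1, NDUFA13, NDUFA3, NDUFA6, NDUFA9, NDUFS6, ATP5PD, COX8A, COX7B2, COX8C, ATP5MF-PTCD1, ATP5F1A, ATP5F1C, ATP5ME, TFAM, TFB1M, NRF1, GABPA, YY1, VWF and PECAM1 were added after their values were seen. Of the list genes SCO2 was not matched. Alternatives were RLE scaling, other filters, DESeq2 1.42.0, limma voom, a block for replicate number, the table without its 20 most abundant genes, protein-coding genes alone, only the 6 libraries compared, and leaving out each library.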

Additional observations from a re-analysis of the deposited data

How the results depend on the processing

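With no filter on low counts, 3 members were higher and 7 lower on overexpression (2062 genes called in all, against 1072), 32 were higher on depletion, 5 were higher in the shRNA control, and 26 differed between the responses. A stricter filter (1 CPM or more in 3 or more libraries) gave 2 lower on overexpression, 29 higher on depletion and 2 lower in the difference of the responses. DESeq2 gave 5 lower on overexpression and 1781 genes in all. Protein-coding genes alone gave 2 lower on overexpression, 30 higher on depletion and 2 lower in the difference. With only the 6 libraries compared, overexpression gave 0 higher, 0 lower and 320 genes in all by edgeR, where the fit of 12 libraries gave 24 members (28.2%) at an unadjusted p under 0.05 against 18.5% of all tested genes, and depletion gave 43 higher, 2 lower and 8112 genes in all, against 5172. The cause of these shifts was not tested. No called member changed direction under any alternative in the comparison where it was called. Members not called in the main fit were not followed in this way. Of the alternative values of called members, pooled over all comparisons, 1726 kept the call and 236 lost it. Most of these values come from the comparison of the controls. On overexpression SDHC kept its call in 17 of 21 alternatives and NDUFB4 in 11. The difference of the responses was not run with DESeq2, and 6 libraries cannot give it.

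Leaving out each library in turn, the count on overexpression ranged from 0 to 1 higher, 0 to 4 lower and 511 to 1876 genes in all. On depletion it ranged from 5 to 44 higher, 0 to 2 lower and 3535 to 8375 genes in all. Between the controls it ranged from 2 to 5 higher, 46 to 60 lower and 9519 to 12335 genes in all. For the difference of the responses it ranged from 4 to 38 higher, 0 to 2 lower and 1928 to 5381 genes in all. The largest counts of depletion came without vector control replicate 3 and the smallest count of higher members without depletion replicate 1.

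Same-numbered libraries did not deviate together (correlations of -0.022 to 0.0827), so the numbers were not taken as pairs. With a replicate block, 1 member was higher and 1 lower on overexpression, 21 were higher and 1 lower on depletion, 4 were higher and 56 lower in the shRNA control, and 16 differed between the responses. With the block ATP5F1B and ATP5ME lost their call on depletion, and ATP5MC2 its call in the difference of the responses. Depth limits the low isoforms: COX6B2, COX7A1, COX7B2 and ATP5MGL stayed under 1 CPM in every library.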
